A study of Mus musculus with 2 samples.

Results

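The mouse mitochondrial genome is a small circular DNA that codes for 13 proteins, 2 ribosomal RNAs and 22 transfer RNAs, and its transcripts are described here in aortic macrophages from mouse models of 2 syndromes of raised blood lipids. The genes were taken as every row whose symbol starts with mt- in lower case, which gave 37 of the 54532 genes. All 37 lie on the mitochondrial chromosome MT of GRCm38, and all 37 have the same start, end and strand in GENCODE M21.

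All mice were male ApoE-/- animals, labelled as 6 weeks old and on a C57BL/6J background, which lack apolipoprotein E and so keep cholesterol-rich particles in the blood. PDR stands for Phlegm-Dampness Retention and SKYD for Spleen and Kidney Yang Deficiency, both syndromes of traditional Chinese medicine. The PDR group was kept on high-fat feed during 4 weeks. The SKYD group was first given propylthiouracil, a drug that lowers thyroid hormone, by gavage for 4 weeks at 10 mg/kg per day, and the same feed followed for 2 weeks. Syndrome, drug, time on the feed and age therefore cannot be told apart. The macrophages were sorted on CD11b and on the surface protein coded by Adgre1, both of which mark myeloid cells including macrophages. Each group was a pool from 5 mice, so that it had 1 library and the differences have no replicate check.

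Levels are given as FPKM, the authors' reads per kilobase of gene scaled to a library size that the authors set. FPKM times gene length came out as whole reads (within 0.01) for 100% of the genes above 0, namely 17738 genes in PDR and 20499 in SKYD. The reads on genes summed to 23086889 in PDR and 25427863 in SKYD. The library size behind FPKM was 1.02 times that sum in PDR and 0.983 times in SKYD, which moves each difference of a well-covered gene by about 0.05 on the log2 scale toward SKYD compared with scaling over these reads. Differences between the libraries are log2(FPKM + 1) in PDR minus that in SKYD, so that a negative value is a higher level in SKYD. Genes whose FPKM averaged at least 1 over the libraries are called tested genes, of which there were 10399, with a median difference of -0.0035. Intervals are exact (Clopper-Pearson) 95% intervals from the read numbers and cover counting error only.

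Both strands of mitochondrial DNA are transcribed as long precursors that carry many genes, and the precursors are cut mostly at the tRNA genes that lie between the others. The proteins are core subunits of the respiratory chain complexes I, III and IV and of the ATP synthase, complex V, and the remaining subunits come from nuclear genes. Macrophages are known to shift between mitochondrial respiration and glycolysis as they take on different activation states. Copy number of mitochondrial DNA, transcription and RNA decay all act on the level of these transcripts.

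Several sequences show what the read numbers can and cannot separate. The first set is the tRNA genes with the most reads, taken from the GENCODE M21 transcripts of GRCm38 and written 5′ to 3′ on the strand of the gene. Capitals mark the anticodon, the bases that pair with the codon. mt-Tp lies at MT:15356-15422 on the minus strand, mt-Tn at MT:5089-5159 on the minus strand, mt-Ty at MT:5260-5326 on the minus strand, mt-Tc at MT:5192-5257 on the minus strand and mt-Tm at MT:3845-3913 on the plus strand.
mt-Tp: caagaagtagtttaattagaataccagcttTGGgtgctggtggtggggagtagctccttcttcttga
mt-Tn: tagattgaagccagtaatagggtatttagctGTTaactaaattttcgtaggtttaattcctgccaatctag
mt-Ty: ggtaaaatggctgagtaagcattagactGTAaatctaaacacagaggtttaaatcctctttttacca
mt-Tc: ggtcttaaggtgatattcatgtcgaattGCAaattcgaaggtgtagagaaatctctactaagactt
mt-Tm: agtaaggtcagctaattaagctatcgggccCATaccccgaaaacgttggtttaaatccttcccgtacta

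The second set shows pieces of mitochondrial sequence that also stand on nuclear chromosome 1, where annotated pseudogenes copy several mt- genes. mt-Co1 and its copy Gm29216 are identical from base 1067 of mt-Co1 on, and capitals mark the start of this identical stretch, while the bases in lower case match only in part. The stretch of mt-Co1 is MT:6381-6414 on the plus strand, and that of Gm29216 is chr1:24616164-24616197 on the minus strand. Both are written on the strand of the gene.
mt-Co1: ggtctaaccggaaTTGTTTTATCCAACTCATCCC
Gm29216: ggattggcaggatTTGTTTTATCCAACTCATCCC
For mt-Nd3 (MT:9459-9501, plus strand) and Gm28438 (chr1:24613077-24613119, minus strand) the only substitution in the aligned stretch is T3C, counted from 1 at the first base of mt-Nd3 with the mitochondrial base first. It is in capitals.
mt-Nd3: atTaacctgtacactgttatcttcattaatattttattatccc
Gm28438: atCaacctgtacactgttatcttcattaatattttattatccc
The third set is a stretch that mt-Co2 (MT:7013-7072, plus strand) and its copy Gm28661 have in common base for base, with the first codon in capitals.
mt-Co2 and Gm28661: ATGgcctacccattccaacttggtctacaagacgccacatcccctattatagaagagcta
The last sequence belongs to mt-Atp8 and mt-Atp6 at once, since these genes overlap by 43 bases (MT:7927-7969, plus strand). Capitals mark the first codon of mt-Atp6.
mt-Atp8 and mt-Atp6: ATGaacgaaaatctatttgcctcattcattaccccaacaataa

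Mitochondrial genes took 3.40% of the gene reads in PDR (95% CI 3.40 to 3.41) and 3.67% of those in SKYD (95% CI 3.66 to 3.68). The difference in the share was -0.27 percentage points, and its size depended on how the share was taken. It was -0.0827 with only protein-coding reads in both numerator and denominator, and -0.608 as a share of summed FPKM. In numbers of reads these were 785886 in PDR and 933405 in SKYD. Protein-coding mt- genes held 555901 and 665382 of them, the rRNA genes 228916 and 266972, and the tRNA genes 1069 and 1051. In these pools of cells, fewer cells of a type and less RNA per cell cannot be told apart.

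Of the 13 protein-coding mt- genes, 12 were lower in PDR and mt-Co1 was higher, although mt-Nd4l turned to slightly higher in PDR when values were rescaled to TPM, over nuclear reads or, chosen after seeing the data, over the reads of all genes. The median difference of the 13 genes was -0.51, with a range from -1.08 (mt-Atp6) to 0.31 (mt-Co1). With the reads of nuclear copies on chromosome 1 added to their mt- genes, an alternative chosen after seeing the data, the median was -0.63 and the lowest value was -1.40 (mt-Co2). Both rRNA genes were also lower in PDR. For comparison, 5240 of the tested genes, or 50.4%, had the higher value in SKYD.

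Few mt- genes lay past 2-fold on the log2(FPKM + 1) scale, and most of these had few reads. Among the tested genes of all kinds, 767 (7.38%) lay beyond 2-fold toward PDR and 719 (6.91%) beyond 2-fold toward SKYD, 1486 (14.3%) in all. Of the 37 mt- genes, 29 were tested. Past 2-fold toward PDR lay 2 of these 29 (6.90%), and toward SKYD 3 (10.3%). The former were the tRNA genes mt-Ty and mt-Tl2, and the latter were mt-Atp6 and the tRNA genes mt-Ti and mt-Tg. mt-Tl2, mt-Ti and mt-Tg had at most 6 reads in a library and are named here because their values were seen. These 3 genes reached a mean of 1 FPKM only through the library where they were high, so the filter itself let them in and the shares of the 29 are not read against the background. With at least 10 reads in a library, a minimum chosen after seeing the data, 1 of 22 mt- genes (mt-Ty) lay past 2-fold toward PDR and 1 (mt-Atp6) toward SKYD, 4.55% each way, beside 7.25% and 6.69% of all genes under that minimum. With 0.1 in place of 1 added to FPKM, the count toward PDR was 5 of 29 (17.2%), all of them tRNA genes, and 10.2% of all tested genes lay there, but mt-Tl2 and mt-Tq among them were likewise tested only through their level in PDR.

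**Figure D1:**
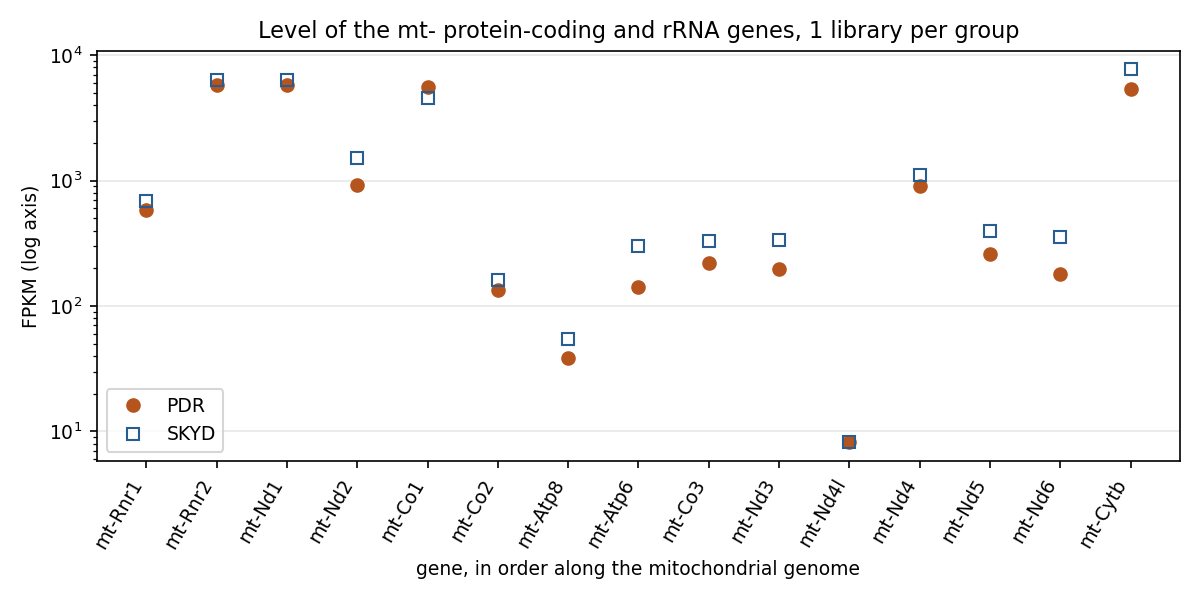
Levels of the 13 protein-coding and 2 rRNA genes of the mitochondrial genome as FPKM on a log axis, with the PDR library as filled circles and the SKYD library as open squares, in order along the genome. mt-Rnr2, mt-Nd1, mt-Co1 and mt-Cytb lie at 4552 FPKM or more in both libraries, and mt-Nd4l lies lowest, at 8.17 and 8.22 FPKM.

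Complex I, which takes electrons from NADH, has 7 subunits coded in the mitochondrial genome. All 7 had lower values in PDR on the FPKM scale, apart from the turn of mt-Nd4l under the rescalings named above, and their median difference was -0.63. mt-Nd1 (ENSMUSG00000064341), part of the site where the complex binds its quinone, had 5808 FPKM in PDR and 6319 in SKYD, from 130545 and 151143 reads. Its difference of -0.12 (95% CI -0.13 to -0.11) was close to that of mt-Rnr2, the rRNA gene next upstream, and was -0.08 when scaled over nuclear reads and -0.07 over the reads of all genes.

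mt-Nd2 (ENSMUSG00000064345), one of the subunits that form the proton-pumping arm, follows mt-Nd1 on the same strand after 3 tRNA genes. It had 919 FPKM in PDR and 1511 in SKYD and a difference of -0.72 (95% CI -0.74 to -0.69). The step from mt-Nd1 to mt-Nd2 was thus 0.59 on the log2 scale, well outside both counting intervals. mt-Nd1 stood 6.32 times above mt-Nd2 in FPKM in PDR and 4.18 times in SKYD.

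mt-Nd4 and mt-Nd4l, further subunits of the membrane arm, lie on a shared mRNA and overlap by 7 bases. mt-Nd4 (ENSMUSG00000064363) had 903 FPKM in PDR and 1106 in SKYD, with a difference of -0.29 (95% CI -0.32 to -0.27). mt-Nd4l (ENSMUSG00000065947) had 57 reads in PDR and 61 in SKYD, and its difference of -0.01 (95% CI -0.49 to 0.48) was not detectable at this depth. Although both are read from 1 RNA, mt-Nd4 was 110 times above mt-Nd4l in FPKM in PDR and 135 times in SKYD. mt-Nd4l is 297 bases long, 294 of which also stand in an identical nuclear copy, and the part of length or copies in its low level was not tested.

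mt-Nd3 (ENSMUSG00000064360), a small subunit at the junction of the arms of the complex, had 196 FPKM in PDR and 339 in SKYD, a difference of -0.79 (95% CI -0.87 to -0.70). mt-Nd5 (ENSMUSG00000064367), the largest subunit of the membrane arm, had 258 and 400 FPKM and a difference of -0.63 (95% CI -0.67 to -0.60). Both were lower in PDR by more than mt-Nd4, which lies between them.

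mt-Nd6 (ENSMUSG00000064368) is the only protein-coding mt- gene on the minus strand here and so comes from the precursor of the other strand. It had 180 FPKM in PDR and 353 in SKYD, from 2196 and 4573 reads. The difference of -0.96 (95% CI -1.04 to -0.89) was just inside the 2-fold line and was the closest to mt-Atp6 among the mt- proteins. mt-Nd5 and mt-Nd6 overlap by 14 bases on opposite strands, and without a stated strand setting reads of the antisense RNA of 1 cannot be told apart from those of the other. The ratio of mt-Nd5 to mt-Nd6 in FPKM was 1.43 in PDR and 1.13 in SKYD.

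Complex III, which passes electrons from quinol to cytochrome c, has a single mitochondrial gene. mt-Cytb (ENSMUSG00000064370), its cytochrome b, had 5434 FPKM in PDR and 7720 in SKYD, from 146017 and 220745 reads. It was the most abundant mt- gene in SKYD and ranked 7 among all genes there by FPKM, against 12 in PDR. The difference was -0.51 (95% CI -0.52 to -0.50), and as the middle value of the 13 genes it set their median. No window of its sequence occurs in a transcript of another gene, and it is among the best measured of the set.

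Complex IV, cytochrome c oxidase, reduces oxygen and has its catalytic core coded by mt-Co1, mt-Co2 and mt-Co3. These 3 genes went apart. mt-Co1 (ENSMUSG00000064351), the subunit that holds the site of oxygen reduction, had 5627 FPKM in PDR and 4552 in SKYD, from 204198 and 175779 reads. Its difference was 0.31 (95% CI 0.30 to 0.31), a level 1.24 times higher in PDR, and it was positive under every scaling tried. mt-Co1 ranked 11 among all genes in PDR and 16 in SKYD.

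mt-Co2 (ENSMUSG00000064354), which receives electrons from cytochrome c, had 134 FPKM in PDR and 162 in SKYD, a difference of -0.27 (95% CI -0.36 to -0.19). mt-Co3 (ENSMUSG00000064358) had 219 and 330 FPKM, a difference of -0.59 (95% CI -0.65 to -0.53). mt-Co1 exceeded mt-Co2 42.1 times in FPKM in PDR and 28.1 times in SKYD, and it exceeded mt-Co3 25.7 times and 13.8 times. Reads of mt-Co2 and mt-Co3 are shared with nuclear copies, as given further on, so their levels are uncertain. With the copies added, mt-Co2 had 215 FPKM in PDR and 571 in SKYD, and mt-Co3 had 507 and 892. mt-Co1 then had 5701 and 4596, so that all of these ratios were smaller.

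Complex V, the ATP synthase, has the mitochondrial subunits a and 8 of its membrane part. mt-Atp6 (ENSMUSG00000064357), the subunit that forms the path for protons, had 141 FPKM in PDR and 299 in SKYD, from 2253 and 5097 reads. It was 2.13 times higher in SKYD, with a difference of -1.08 (95% CI -1.15 to -1.01). mt-Atp8 (ENSMUSG00000064356) had 183 and 276 reads, which is 38.2 and 54.1 FPKM, and a difference of -0.49 (95% CI -0.76 to -0.22). The pair shares an mRNA, yet mt-Atp6 was 3.69 times above mt-Atp8 in FPKM in PDR and 5.53 times in SKYD. With the reads of its nuclear copy added, mt-Atp6 had 272 FPKM in PDR and 572 in SKYD, which makes both ratios larger. No annotated copy of mt-Atp8 was found, so its reads could not be added to in the same way. The 43 shared bases printed above are a large part of the 204 bases of mt-Atp8, and reads on them are uncertain.

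The rRNA genes lie at the start of the main precursor and make the small and the large RNA of the mitochondrial ribosome. mt-Rnr2 (ENSMUSG00000064339) had 5808 FPKM in PDR and 6340 in SKYD, a difference of -0.13 (95% CI -0.13 to -0.12), which was -0.08 when scaled over nuclear reads or over the reads of all genes. mt-Rnr1 (ENSMUSG00000064337) had 583 and 683 FPKM, a difference of -0.23 (95% CI -0.26 to -0.19). The large rRNA stood 9.96 times above the small one in FPKM in PDR and 9.28 times in SKYD. Together the rRNA genes took 0.992% of all reads in PDR (95% CI 0.988 to 0.996) and 1.05% in SKYD (95% CI 1.05 to 1.05).

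**Figure D2:**
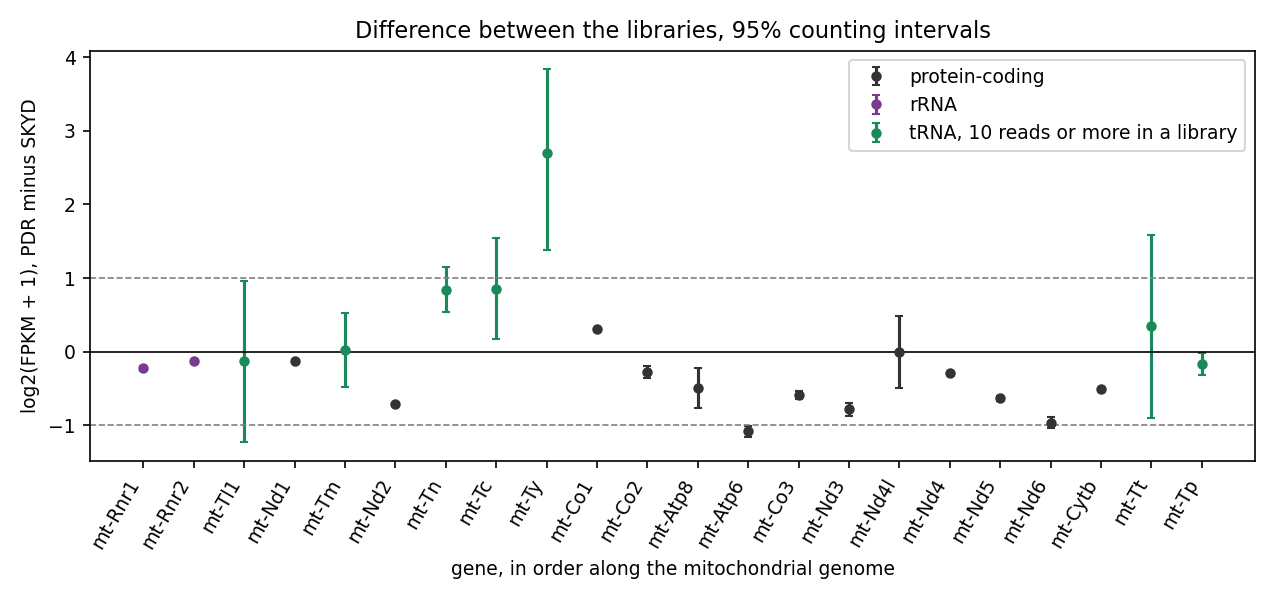
Difference in log2(FPKM + 1), PDR minus SKYD, for the mt- protein-coding and rRNA genes and the tRNA genes with at least 10 reads in a library, in order along the genome, with 95% counting intervals as bars and dashed lines at a 2-fold difference. mt-Co1 at 0.31 and the tRNA genes mt-Tn, mt-Tc and mt-Ty just before it lie above 0 with their whole intervals, while most other protein-coding genes lie below 0.

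The tRNA genes carry amino acids to the mitochondrial ribosome and are 59 to 75 bases long. Of the 22, 6 had no read in either library, which by counting error alone allows up to 3 reads each: mt-Tf, mt-Tv, mt-Ts1, mt-Td, mt-Tk and mt-Ts2. Among these, mt-Ts1, mt-Td and mt-Tk lie between mt-Co1 and mt-Atp6, which have nuclear copies on chromosome 1, and mt-Tg and mt-Tr likewise lie between copied genes. Nuclear sequence outside annotated transcripts was not searched, so whether reads of these tRNA genes were lost to copies was not tested. Only 7 had at least 10 reads in a library. mt-Tp, the tRNA for proline, held most of the tRNA reads, with 642 in PDR and 769 in SKYD, or 60.1% and 73.2% of them. Its difference was -0.17 (95% CI -0.32 to -0.02). Library protocols for long RNA recover mature tRNAs poorly, and whether these reads came from mature tRNAs or from precursors was not tested.

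The tRNA genes between mt-Nd2 and mt-Co1 had the higher value in PDR, as mt-Co1 next to them did. This group was chosen after its values were seen, so that its common direction is only a description. It holds mt-Tw, mt-Ta, mt-Tn, mt-Tc and mt-Ty, all but mt-Tw on the minus strand. Summed over the 5 genes, PDR had 329 reads and SKYD 178. Of the other 17 tRNA genes, 9 were tested, with 5 higher in PDR, 4 higher in SKYD and a median difference of 0.02. mt-Ti, mt-Tq, mt-Tg and mt-Tl2 among these 9 passed the filter only through their higher library. All 17 summed to 740 reads in PDR and 873 in SKYD, mostly from mt-Tp, and without mt-Tp to 98 and 104.

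mt-Tn, the tRNA for asparagine, had 239 reads in PDR and 141 in SKYD, a difference of 0.84 (95% CI 0.54 to 1.15). mt-Tc, for cysteine, had 47 and 27 reads and a difference of 0.85 (95% CI 0.17 to 1.55). mt-Ty, for tyrosine, had 27 and 3 reads. This is a ratio of 9.58 in FPKM (95% CI 2.95 to 49.3) and a difference of 2.70 (95% CI 1.38 to 3.83), the largest of any mt- gene in size. mt-Ty lies 1 base from the start of mt-Co1 on the opposite strand, so that reads of mt-Co1 precursors that reach into it cannot be told apart from its own.

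mt-Ta had 9 and 4 reads and mt-Tw 7 and 3, and both intervals held 0. mt-Tm, the tRNA for methionine, had 63 and 66 reads and a difference of 0.02 (95% CI -0.49 to 0.53). The other tRNA genes with at least 10 reads were mt-Tl1, with 11 and 13, and mt-Tt, with 10 and 8. mt-Tl2 had 4 reads in PDR and 0 in SKYD, with a counting interval of the log2 difference from -0.27 to 1.76. mt-Tg had 0 and 5 reads, with an interval from -1.98 to 0.13. mt-Ti had 1 and 6 reads, a ratio of 5.64 in favour of SKYD with a counting interval from 0.684 to 259. All 3 intervals thus included equal levels.

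Along the genome, the differences did not form a gradual slope. From mt-Rnr1 to mt-Rnr2 the step was 0.10 on the log2 scale, and from mt-Rnr2 to mt-Nd1 it was 0.0045. From mt-Nd2 to mt-Co1 the value went up by 1.02, and from mt-Co1 to mt-Co2 it went back by 0.58. Which step was the largest depended on the nuclear copies, since with their reads added the step from mt-Co1 to mt-Co2 was 1.71 and that from mt-Nd2 to mt-Co1 was 1.03. Among the genes after mt-Co1, values ranged from -1.08 (mt-Atp6) to -0.01 (mt-Nd4l) as deposited, and from -1.40 (mt-Co2) to -0.17 (mt-Nd4l) with the copies added.

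Each library's mitochondrial reads can also be taken as a whole and split by gene, which removes any difference in the total. mt-Co1 made up 26.0% of the mt- reads in PDR (95% CI 25.9 to 26.1) and 18.8% in SKYD (95% CI 18.8 to 18.9). For mt-Cytb the shares were 18.6% (95% CI 18.5 to 18.7) and 23.6% (95% CI 23.6 to 23.7). The ratio of mt-Co1 to mt-Cytb in FPKM was 1.04 in PDR and 0.59 in SKYD. By share of the mt- reads, mt-Rnr2 came first in both libraries, followed by mt-Co1 in PDR and by mt-Cytb in SKYD.

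mt-Rnr2 took 27.5% of the mt- reads in PDR and 26.9% in SKYD, and mt-Nd1 took 16.6% and 16.2%. These shares were nearly alike in both libraries. mt-Nd2 made up 2.85% in PDR (95% CI 2.81 to 2.89) and 4.20% in SKYD (95% CI 4.16 to 4.24), and mt-Nd5 made up 1.40% and 1.95%. The 4 genes mt-Cytb, mt-Rnr2, mt-Nd1 and mt-Co1 together held 88.6% of the mt- reads in PDR and 85.5% in SKYD. Without mt-Co1, the protein-coding mt- genes took 1.52% of all reads in PDR and 1.93% in SKYD, a wider gap than the 2.41% and 2.62% with it.

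**Figure D3:**
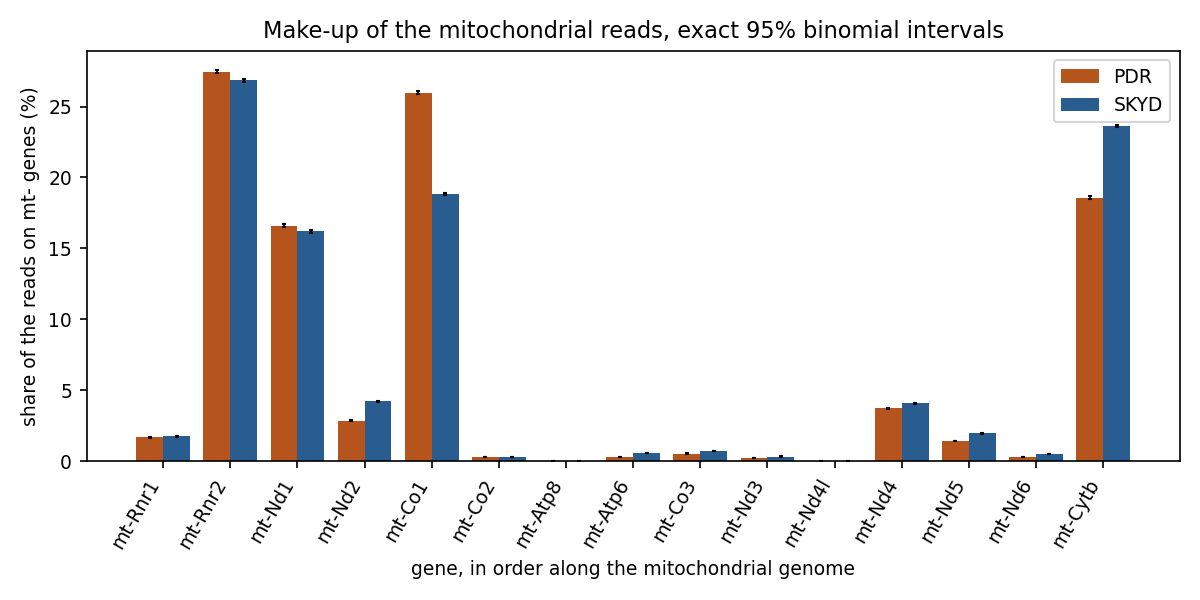
Share of the reads on mt- genes that each protein-coding and rRNA gene took, in percent, in PDR and in SKYD, with exact 95% binomial intervals as bars. mt-Co1 took 26.0% in PDR and 18.8% in SKYD, while mt-Cytb took 18.6% and 23.6%.

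Pieces of mitochondrial DNA that moved into nuclear chromosomes in evolution can take up reads of mt- genes, because the sequence is nearly the same. Windows of 64 bases from the mt- genes were looked up on both strands in the transcripts of all other genes. A block on chr1:24611535-24616197 holds 7 annotated pseudogenes on the minus strand that copy mt-Co1, mt-Co2, mt-Atp6, mt-Co3, mt-Nd3, mt-Nd4l and mt-Nd4 in the order of the mitochondrial genome. The aligned stretch was identical for 5 of these 7 copies. The copies had 11598 reads in PDR and 24858 in SKYD, or 0.0502% and 0.0978% of all reads.

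mt-Co2 and its copy Gm28661, which are identical over 681 bases, shared their reads out differently in the libraries. The copy took 38.0% of the reads of the pair in PDR (95% CI 36.4 to 39.7) and 71.7% in SKYD (95% CI 70.8 to 72.6). In reads, Gm28661 had 1316 in PDR and 7004 in SKYD, a difference of -2.31 (95% CI -2.39 to -2.22), far below the -0.27 of mt-Co2 itself. A read inside the identical stretch matches both places equally, so the split between them does not tell where the RNA came from. With both read numbers added, the difference was -1.40 (95% CI -1.46 to -1.35), which is past 2-fold.

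mt-Co3 and its copy Gm28437 are identical over 783 bases. Gm28437 had 5304 reads in PDR and 11001 in SKYD, more than mt-Co3 in both libraries, and took 56.8% and 63.0% of the pair. Its difference was -0.96 (95% CI -1.01 to -0.91), and that of the pair added together was -0.81 (95% CI -0.85 to -0.78). mt-Atp6 and Gm10925 are identical over 678 bases and split nearly evenly in both libraries, with 48.2% of the reads on the copy in PDR and 47.7% in SKYD. Gm10925 had a difference of -1.05 (95% CI -1.13 to -0.98), close to the -1.08 of mt-Atp6, and the pair together had -1.07 (95% CI -1.12 to -1.02).

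mt-Nd3 kept most of its reads, with 3.95% on Gm28438 in PDR (95% CI 3.07 to 5.0) and 9.12% in SKYD (95% CI 8.15 to 10.2). The copy had 66 and 296 reads and a difference of -1.95 (95% CI -2.31 to -1.59), and the pair together had -0.87 (95% CI -0.95 to -0.78). Gm10222, the copy of mt-Nd4l, had 25 and 38 reads and a difference of -0.42 (95% CI -1.04 to 0.20). Gm28439, which copies bases 1 to 876 of the 1378 of mt-Nd4, had only 103 and 173 reads, 0.351% and 0.452% of the pair, although that stretch is identical.

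Gm29216 copies the end of mt-Co1, with bases 1067 to 1545 identical. It had 2685 reads in PDR and 1699 in SKYD, a difference of 0.75 (95% CI 0.66 to 0.83). It was the only copy of the block with the higher value in PDR, and mt-Co1 was likewise the only protein-coding mt- gene that was higher in PDR under every scaling. Its reads were 1.30% and 0.957% of the pair, and mt-Co1 with them added had a difference of 0.31 (95% CI 0.30 to 0.32). Adding the copies left mt-Co1 as the exception.

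Across the set, the 5 mt- genes with over 90% of their windows in the chromosome 1 block (mt-Co2, mt-Atp6, mt-Co3, mt-Nd3 and mt-Nd4l) had levels between 8.17 and 339 FPKM. mt-Co1 and mt-Nd4, with 28.1% and 61.8% of windows shared, had 903 FPKM or more. The 6 genes with no window in the annotated copies of the block spanned 38.2 to 7720 FPKM, with mt-Atp8, mt-Nd6 and mt-Nd5 the lowest of them. Only annotated transcripts were searched. mt-Atp8 lies between mt-Co2 and mt-Atp6, which both have copies in the block, and the sequence between those copies was not looked up. The part of the copies in these levels was not tested. Older copies on chr2:22587291-22590533, with an identity of 95.9% to 97.6%, had few reads, 128 in PDR and 141 in SKYD over 3 genes, which are Gm13339, Gm13340 and Gm13341. Copies of mt-Nd5 on chromosomes 4 and 13 had 0 reads (Gm11407) and 1 read (Gm4076) in each library.

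**Figure D4:**
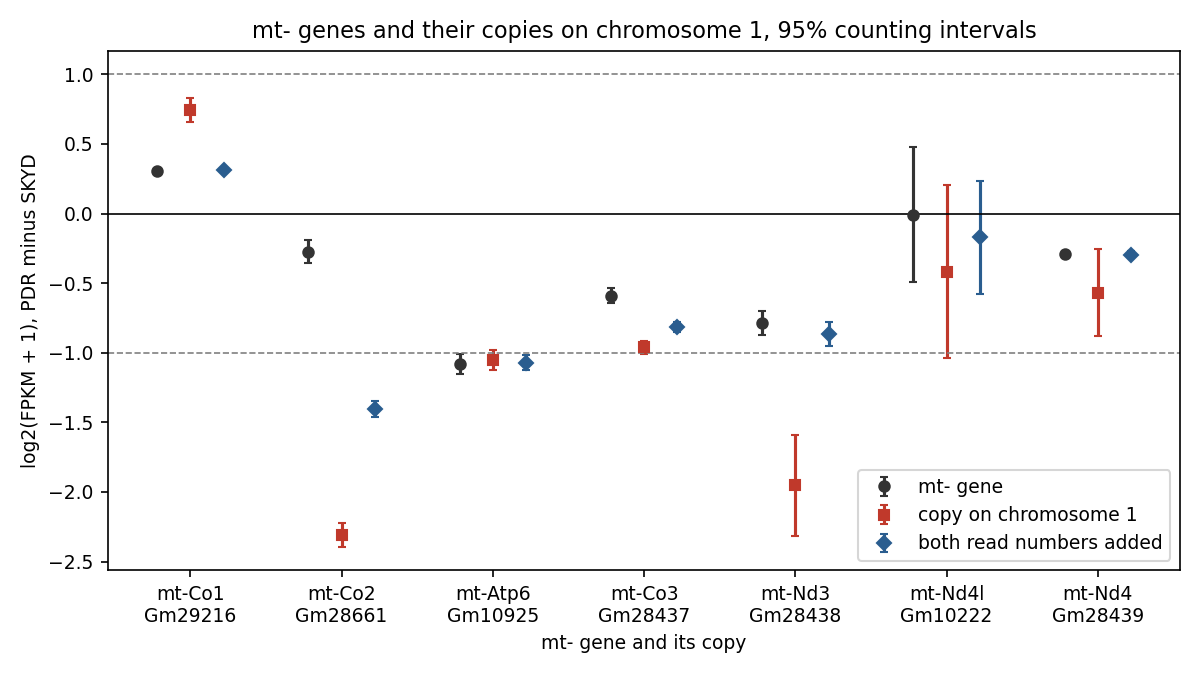
Difference in log2(FPKM + 1), PDR minus SKYD, for 7 mt- genes (circles), their copies on chromosome 1 (squares) and both read numbers added at the length of the mt- gene (diamonds), with 95% counting intervals as bars and dashed lines at a 2-fold difference. For mt-Co2 the copy lies at -2.31 and the gene at -0.27, while for mt-Atp6 all 3 values lie within -1.05 to -1.08.

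By the median of the whole list, the nuclear genes for subunits of the respiratory complexes moved less, and the order within each complex is given below. The list includes the genes of complex II, which has no mitochondrial gene. The list of 75 nuclear-encoded OXPHOS subunits, all of them tested, had a median difference of -0.18, against -0.51 for the 13 mt- proteins and -0.0035 for all tested genes. Of the 75, 51 were lower in PDR and 24 higher, and 0 passed 2-fold in either direction. Of all tested genes, 50.4% were lower in PDR and 14.3% lay past 2-fold either way. The most abundant by mean FPKM were Ndufa1, an accessory subunit of complex I, with -0.49 (95% CI -0.53 to -0.44), and the complex IV subunits Cox6a1, with -0.52 (95% CI -0.55 to -0.48), and Cox6b1, with -0.14 (95% CI -0.17 to -0.10).

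By complex, the mt- genes had a lower median than their nuclear partners in I, III and V, while in IV the order depended on the nuclear copies. The median difference of the 36 nuclear genes of complex I was -0.19, beside -0.63 for the mt- genes. For the 9 nuclear genes of complex III it was -0.13, beside -0.51 for mt-Cytb. The 15 nuclear genes of complex V had -0.07, beside -1.08 and -0.49 for mt-Atp6 and mt-Atp8. In complex IV, the 11 nuclear genes had -0.42, with 10 of the 11 lower in PDR, beside 50.4% of all tested genes. The mt- genes of complex IV had a median of -0.27, from mt-Co1 at 0.31, mt-Co2 at -0.27 and mt-Co3 at -0.59. With the copies added, these 3 had a median of -0.81, below that of the nuclear genes. Complex II, which has no mitochondrial gene, had a median of 0.12 over 4 genes.

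Taken as sums, mt- proteins and nuclear subunits kept nearly the same proportion. There were 1.08 reads on the mt- protein-coding genes for each read on the nuclear subunits in PDR and 1.11 in SKYD. In summed FPKM the ratios were 1.33 and 1.35. mt-Co1, mt-Cytb and mt-Nd1 dominate the sum. Since mt-Co1 and mt-Cytb went in opposite directions and mt-Nd1 differed by only -0.12, the sum hides the spread among the single genes.

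Genes listed for mitochondrial gene expression, among them replication genes and nuclear regulators, went in both directions. Of the 40 genes listed, 33 were tested, 21 of these were higher in PDR and 12 lower, and the median difference was 0.14. For comparison, 5158 of the 10399 tested genes of all kinds were higher in PDR and 5240 in SKYD. The 10 transcription genes had a median of 0.21. Tfam, which packages mitochondrial DNA and starts its transcription, had 18.6 FPKM in PDR and 14.0 in SKYD, a difference of 0.38 (95% CI 0.29 to 0.48). Tefm, the elongation factor, had -0.16 (95% CI -0.29 to -0.03).

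Members of the Mterf family of mitochondrial DNA-binding and RNA-binding proteins were the only listed expression genes past 2-fold. They were 1 of the 33 tested genes each way, beside 7.38% of all tested genes toward PDR and 6.91% toward SKYD. Mterf1b had 148 reads in PDR and 34 in SKYD, a difference of 1.49 (95% CI 1.17 to 1.79). At 4.61 FPKM in PDR and 0.994 in SKYD, it was tested only through its level in PDR. Mterf2 had 178 and 447 reads, a difference of -1.07 (95% CI -1.29 to -0.86). RNA cutting, with 4 genes, had a median of -0.03, and Hsd17b10, a subunit of the enzyme that cuts the 5′ ends of tRNAs, was its most abundant gene at -0.10 (95% CI -0.17 to -0.02). RNA stability and decay had 0.17 over 10 tested genes, replication 0.06 over 6 and nuclear regulators 0.16 over 3.

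The 77 tested genes of the 78 for mitochondrial ribosomal proteins had a median of -0.08. Mrpl54 had 0.17, Mrps21 -0.31 and Mrpl20 -0.26 as the most abundant, and Mrps6 was the only gene past 2-fold, at -1.27 (95% CI -1.43 to -1.11). This was 1.30% of the 77, beside 6.91% of all tested genes past 2-fold toward SKYD. The list of mitochondrial tRNA synthetases, which load the tRNAs, also holds Gatb, Gatc and Qrsl1, the subunits of the amidotransferase that completes the loading of the glutamine tRNA. It had a median of 0.00 over 17 tested genes of 20, with Gatc at 0.53, the synthetase Rars2 at 0.52 and Yars2, the partner of the tRNA from mt-Ty, at -0.16 (95% CI -0.32 to 0.01). General mitochondrial proteins, some of which serve import, folding, fusion and fission, had a median of 0.18 over 23 genes. Fis1 was at 0.00, Hspe1 at 0.28 and Tomm22 at -0.05. By direction, 15 of these 23 were higher in PDR and 8 lower, and 49 of the 77 ribosomal protein genes were lower in PDR. Of all tested genes, 50.4% were lower in PDR.

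**Figure D5:**
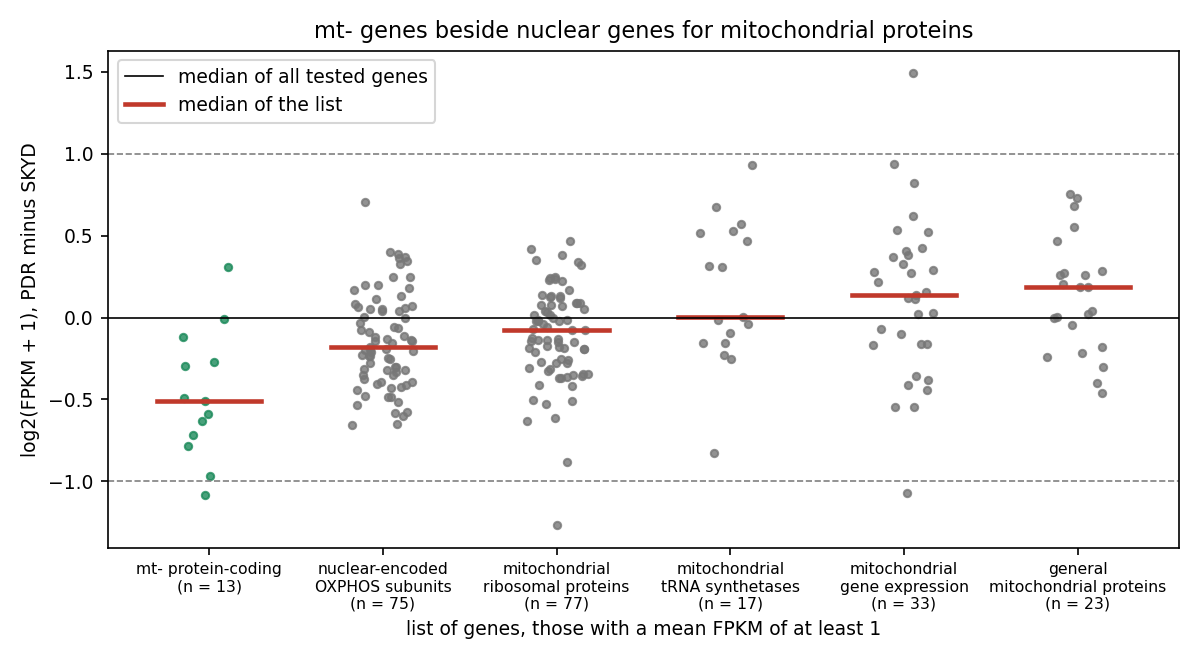
Difference in log2(FPKM + 1), PDR minus SKYD, of the 13 mt- protein-coding genes and of 5 lists of nuclear genes for mitochondrial proteins, 1 point per tested gene, with red lines at the median of each list, a black line at the median of all tested genes and dashed lines at a 2-fold difference. The mt- genes have the lowest median, -0.51, and the general mitochondrial proteins the highest, 0.18.

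Markers of cell types moved between the libraries beside the mt- genes. For comparison, 7.38% of all tested genes lay past 2-fold toward PDR and 6.91% toward SKYD, and 50.4% were lower in PDR. Of 8 macrophage markers, all tested, 6 were lower in PDR and 1 was past 2-fold, the median difference was -0.58, and the summed share of reads was 3.11% in PDR and 5.61% in SKYD, mostly from Lyz2 with 686737 and 1359594 reads. Adgre1 had 6639 and 7551 reads, and Itgam, the CD11b gene, had 1043 and 1803, so both sort markers were present. All 8 hepatocyte markers were more than 2-fold higher in PDR, with a summed share of 0.239% and 0.0718% and Alb most abundant at 14192 and 4261 reads. Of 6 B cell markers, 5 were more than 2-fold higher in PDR, with 0.361% and 0.0674% and Cd79b at 26961 and 6012 reads.

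Of 7 T and NK cell markers, 5 were more than 2-fold higher in SKYD and 1 in PDR, beside 6.91% and 7.38% of all tested genes. Their summed share of reads was 0.0424% in PDR and 0.200% in SKYD, with Cd8b1 at 1383 and 19828 reads. Of 7 neutrophil markers, 3 were more than 2-fold higher in PDR, with 0.306% and 0.212% and S100a8 at 31150 and 25727 reads. Mpo, 1 of these 3, was tested only through its level in PDR, with 5.81 FPKM there and 0.841 in SKYD. Of 7 erythroid markers, 6 were tested, 4 of these were lower in PDR and 0 passed 2-fold, with 1.71% and 2.21% and Hba-a1 at 206108 and 317627 reads. Of 5 platelet markers, 1 was more than 2-fold higher in SKYD, with a summed share of 0.0197% and 0.105%. This share came mostly from Pf4, the gene past 2-fold, at 3690 and 26049 reads, while Ppbp at 0.20, Gp9 at 0.34 and Itga2b at 0.74 had the higher value in PDR. Gp1bb was at 0 in both libraries, and no other marker was at 0. Cell types differ in mitochondrial transcripts, and the part of this cell make-up in the mt- differences was not tested.

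Some features of sequence are shared by the mt- genes that the rule did not use. GC content of the 13 protein-coding genes ranged from 31.9% (mt-Atp8) to 41.1% (mt-Nd4l). For 3 of the 13, mt-Co3, mt-Nd4 and mt-Cytb, the gene is 1 base longer than whole codons and ends on T, and the stop codon is known to be completed by the added tail of A bases. mt-Cytb and mt-Co3 abut the next tRNA gene, mt-Tt and mt-Tg, with no base between. These 3 genes had differences of -0.59, -0.29 and -0.51, within the range of the other mt- proteins.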

How the data were processed

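RNA was sequenced from 1 pool of macrophages per group. After read filtering, alignment was by TopHat 2.0.9 on Bowtie2 2.0.6 and counting by HTSeq 0.6.1, and the authors deposited FPKM with gene positions and lengths. The submitters' processing notes name mm9, while the deposited gene positions are those of GRCm38. The strand setting of counting is not given in the sources used here, nor is the treatment of reads that match several places. Reads that match both an mt- gene and its copy may have been left out, so their sum need not be a total. The unit of 1 read was the lowest step of FPKM times length in each library. No test could be made with 1 library per group, so values, 2-fold counts and exact 95% intervals are given. A count of 0 allows up to 3 reads, or 1.3e-05% of the reads in PDR and 1.18e-05% in SKYD. Pseudocounts, filters, scalings and gene biotypes were varied.

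Members and lists were chosen with earlier results of these data known. Named were all mt- protein-coding and rRNA genes, the 5 tRNA genes with the most reads or those past 2-fold with at least 10 reads, and of each nuclear list the 3 with the highest mean FPKM and those past 2-fold. Alignments to copies were local (Biopython 1.88). Read recovery, the log2 difference, the 2-fold call and the counting intervals were tested on simulated reads. The search for copies and the alignments were not. The work used scipy 1.17.1 for intervals, matplotlib 3.10.9 for plots, and pandas 2.3.3 with numpy 2.4.6 under Python 3.11.15 for tables.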

Additional observations from a re-analysis of the deposited data

How the results depend on the processing

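No paired analysis was possible because each group had 1 library. The count of mt- genes more than 2-fold higher in PDR was 2 and became 5 with a pseudocount of 0.1, 5 with 0.01, 5 in TPM, 4 over nuclear reads, 4 over the reads of all genes (chosen after seeing the data), 1 at a minimum mean FPKM of 5, 0 among protein-coding genes and, chosen after seeing the data, 1 with at least 10 reads in a library. The count higher in SKYD was 3 and became 1 at that minimum, 1 among protein-coding genes and 1 with at least 10 reads. With the reads of the chromosome 1 copies added, also chosen after seeing the data, it was 4, with mt-Co2 as the added gene. All other genes that came and went were tRNA genes. The median of the mt- protein-coding genes, -0.51, was -0.49 in TPM, -0.46 over nuclear reads or over the reads of all genes and -0.63 with the copies added, which also took the median of complex IV from -0.27 to -0.81. The difference in the share of reads, -0.27 percentage points, was -0.0827 within protein-coding reads, -0.212 without rRNA, -0.608 in summed FPKM and -0.314 with the copies. The share of all tested genes past 2-fold toward PDR, 7.38%, was 10.2% and 10.5% with the pseudocounts of 0.1 and 0.01, 8.74% in TPM, 7.91% over nuclear reads and 7.86% over the reads of all genes. Toward SKYD, 6.91% became 9.71% and 10.1% with these pseudocounts, 7.91% in TPM, 6.53% over nuclear reads and 6.45% over the reads of all genes. At the minimum of 5, 8.06% lay past 2-fold toward PDR and 6.48% toward SKYD, and among protein-coding genes 6.16% and 5.38%. The 1486 genes past 2-fold either way were 837 at the minimum of 5 and 1015 among protein-coding genes. They were 2067 and 2144 with the pseudocounts, 1995 in TPM, 1707 without the filter and 1519 over nuclear reads. The median of the nuclear subunits, -0.18, was -0.13 over the reads of all genes and lay between -0.18 and -0.14 under its other alternatives. Causes of these shifts were not tested. Among 20 named mt- genes, 66 of 213 alternative values were left as they were by the setting itself. Of the other 147, 125 stayed within the counting interval of the gene, 22 moved and 0 with an interval apart from 0 changed sign.

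The depth limits mainly the tRNA genes, since 1 read at a length of 68 bases is worth 0.622 FPKM in PDR and 0.584 in SKYD, and mt-Nd4l and mt-Atp8. Reads shared with identical copies, overlapping genes and the strand of reads limit mt-Co2, mt-Co3, mt-Atp6, mt-Nd3, mt-Nd4l, mt-Nd6 and the tRNA genes. Overlaps also limit mt-Atp8 and, over the 14 bases it shares with mt-Nd6, mt-Nd5. Spread between mice was not measured.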
